A study of Sus scrofa with 30 samples.

Results

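Of the 13103 genes counted in every embryo of a study of early pig development, 75 carried a symbol of the actin cytoskeleton or of a myosin, and these 75 are described here. They were chosen by symbol alone, as the actins (ACTA, ACTB, ACTG), the actin-related proteins (ACTR) and subunits of the Arp2/3 complex (ARPC), profilins (PFN), beta thymosins (TMSB), cofilins (CFL), capping proteins (CAPZ, CAPG) and villin (VIL1), alpha-actinins (ACTN), filamins (FLN) and plastins (PLS, LCP1), ezrin, moesin and radixin (EZR, MSN, RDX), tropomyosins (TPM), and myosins (MYH, MYL, MYO). In the gene table of the assembly Sscrofa11.1, 98 genes match these symbols, and the other 23 were not analysed here. RNA was measured by sequencing in 30 single whole embryos of Sus scrofa, with 5 embryos of each sex on Day 8, Day 10 and Day 12 after insemination. The German Landrace × Pietrain gilts had all been synchronized with altrenogest and treated with PMSG and human chorionic gonadotropin, and all were inseminated with sperm of one Pietrain boar. Each library held the embryonic disc together with the trophectoderm and other extraembryonic cells, and which embryos were littermates is not given in the labels. The embryos of a day came from at most 4 gilts, so some of the 10 were littermates, and n counts embryos, not litters.

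Actin monomers assemble into filaments that push, stiffen or anchor the cell membrane, and myosins pull on these filaments or carry cargo along them. Profilins and thymosins hold the pool of monomers, the Arp2/3 complex starts branches, capping proteins stop growth at filament ends, cofilins sever old filaments, and crosslinkers, tropomyosins and the ezrin, radixin and moesin (ERM) linkers bundle filaments, coat them or tie them to the membrane. Between Day 8 and Day 12 the pig conceptus grows from a sphere through an ovoid to a long filament, a change in shape that is known to rest largely on cell rearrangement.

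Total counts ran from 6068212 in the Day 12 female embryo d12_f_245 to 34002508, and 3 counts, taken as the floor of detection, were at most 0.434 CPM (counts scaled to library size with TMM factors). Embryos of the same day and sex all differed by more than sampling noise, with a ratio of chi-square to its degrees of freedom of 7.33 in the closest of 60 pairs. The trophectoderm markers KRT8 and GATA3 were found in every embryo, at 6139 to 29326 CPM and 93.1 to 463 CPM. To Day 12, KRT8, CDX2 and KRT18 fell without overlap (log2 fold changes of -1.26, -1.42 and -2.21). GATA3 rose (1.23), while TFAP2C and ELF3 were at 0.00 and -0.30. Summed over these 6 markers, the medians of the 3 days were 23302, 42087 and 12719 CPM. The embryonic disc marker POU5F1 fell at both intervals, from a median of 31.5 CPM on Day 8 to 13.7 on Day 10 and 1.54 on Day 12, and SOX2 and PRDM14 had a median of 0 on Day 12. NANOG of the same list also fell to Day 12, while DNMT3B rose to Day 12 without overlap (medians of 303, 342 and 754 CPM, log2 fold change 1.14 ± 0.12, adjusted p 1.29e-09). In whole embryos, fewer cells of a type and less RNA per cell cannot be told apart, and the part of cell composition in the results was not tested. On Day 10, the 4 embryos d10_f_433, d10_f_454, d10_m_435 and d10_m_453 held the lowest value of 51 and the highest value of 50 of the 75 genes. On Day 12, d12_f_245 and d12_f_271 held the lowest value of 41 and the highest of 23. Calls that were lost without these embryos are given with both values.

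Between Days 8 and 10 the calls in these genes were mostly upward, and between Days 10 and 12 they were split. Genes were called with an adjusted p under 0.001 and a log2 fold change beyond 1. From Day 8 to Day 10, 19 of the 75 genes rose (25.3%) and 2 fell (2.67%), while 9.88% of all 13103 genes rose and 4.20% fell. From Day 10 to Day 12, 12 rose (16.0%) and 13 fell (17.3%), while 14.9% of all genes rose and 8.39% fell. Across the whole span from Day 8 to Day 12, 23 rose (30.7%) and 6 fell (8.00%), against 22.0% and 10.4% of all genes. The comparisons share the embryos of a day and are not independent. The median log2 fold change was 0.44 over the 75 genes and 0.03 over all genes to Day 10, and 0.05 and 0.04 to Day 12. Of genes at the floor on a whole day, only MYO7B had a bound to Day 10, and none had one to Day 12. MYO7B lay above the median with or without its bound (at least 5.08-fold), so the median of 0.44 could not move.

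Scaling by library size alone moved the median of all genes from 0.03 to -0.15 to Day 10 and from 0.04 to 0.24 to Day 12. Under that scaling 14 of the 75 rose and 2 fell to Day 10, and 18 rose and 11 fell to Day 12. The share of rises among the calls to Day 10 then went from 90.5% to 87.5% for the 75 genes and from 70.2% to 55.9% for all genes. To Day 12 it went from 48.0% to 62.1% for the 75 genes and from 64.0% to 72.9% for all genes. A gene that is at the floor on one day could be in the table only through another day. Of the 65 genes that are in the separate tables of all 3 days, 15 rose (23.1%) and 2 fell (3.08%) to Day 10. From Day 10 to Day 12, 9 rose (13.8%) and 12 fell (18.5%). To Day 12 from Day 8, 15 of the 65 rose (23.1%) and 6 fell (9.23%), against 30.7% and 8.00% of the 75. All genes, not limited in this way, stood at 9.88% and 4.20%, 14.9% and 8.39%, and 22.0% and 10.4% for these comparisons.

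Counting genes whose 10 embryos on one day all lay above or all below the 10 of the other gave 22 higher and 3 lower of 75 to Day 10, against 11% and 11% of all genes. The same count was 9 higher and 11 lower to Day 12, against 8.40% and 8.20%. From Day 8 to Day 12 it was 20 higher and 8 lower, against 15.7% and 16.0%.

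**Figure D1:**
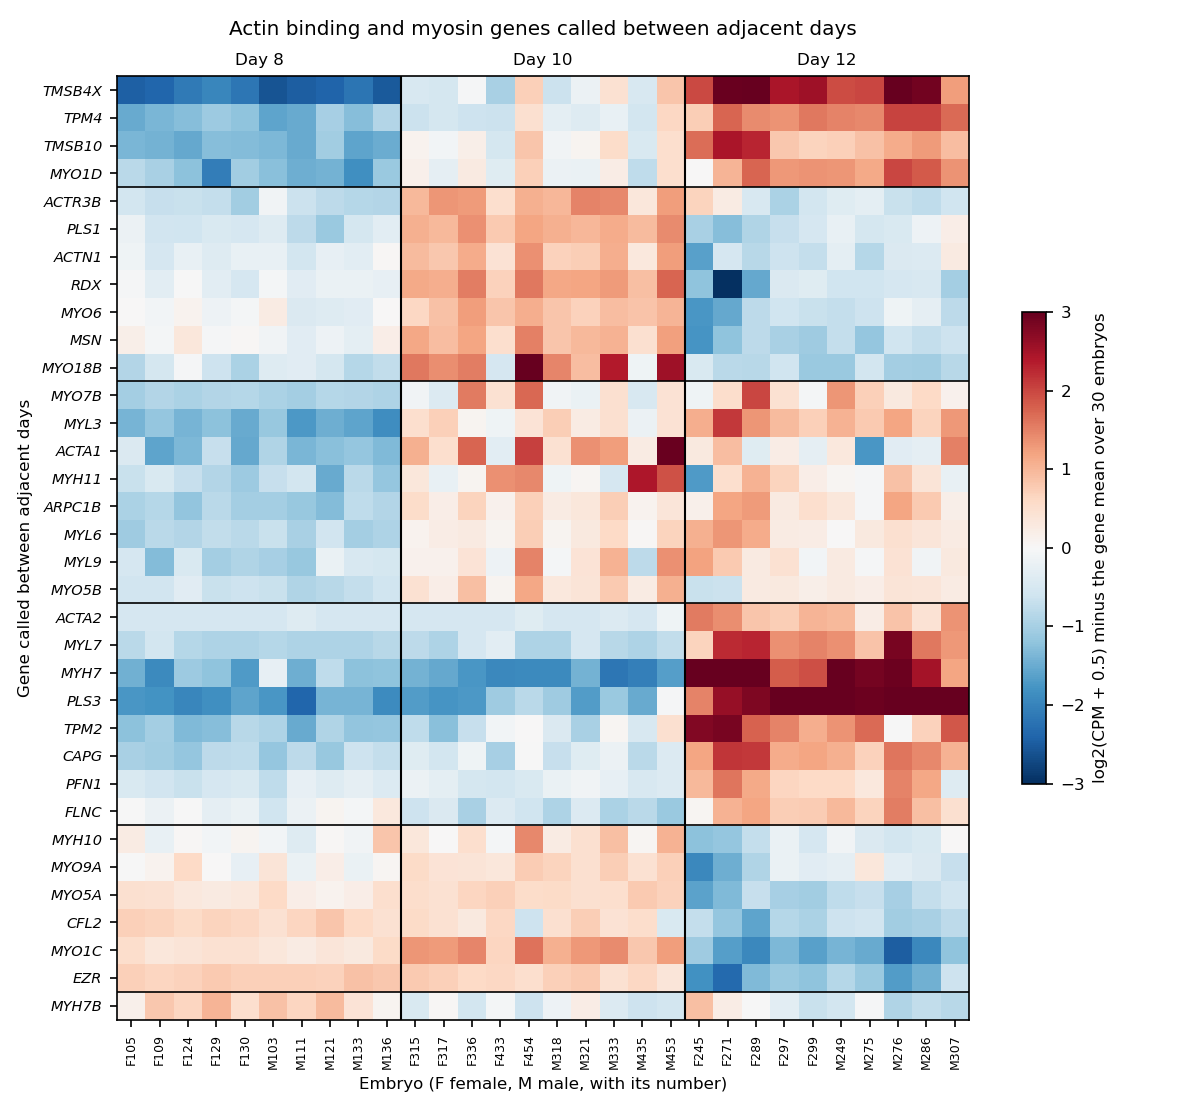
Heat map of 34 of the 35 genes called between adjacent days (rows, in 6 blocks by the direction of their calls) in the 30 embryos (columns, by day). Color is log2(CPM + 0.5) minus the mean of the gene over all embryos and is cut at -3 and 3. The blocks from top to bottom are genes that rose at both steps, rose then fell, rose to Day 10 without a second call, rose to Day 12 alone, fell to Day 12 alone, and fell to Day 10.

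Over both intervals together, 40 of the 75 genes (53.3%) were not called at all, against 68.8% of all genes. TMSB4X, TMSB10, TPM4 and MYO1D rose at both intervals, which 2.01% of all genes did. Rises to Day 10 followed by falls to Day 12 were called in 7 genes (ACTN1, ACTR3B, MSN, RDX, PLS1, MYO6 and MYO18B), 9.33% of the 75 and 2.71% of all genes. A further 8 rose to Day 10 without a second call (10.7%, against 5.17% of all genes), and 6 fell to Day 12 alone (8.00%, against 4.98%). The 8 that rose to Day 12 alone (10.7%, against 12.1%) and the 2 that fell to Day 10 without a second call (2.67%, against 2.71%) were near the share of all genes.

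Of the 4 genes that bind actin monomers, both thymosins rose at both intervals, PFN1 rose to Day 12 and PFN2 was not called. TMSB4X encodes thymosin beta 4, which keeps actin monomers from assembling, and lies on the X chromosome at chrX:9649516-9651662. Its level was 54.3 CPM in the lowest embryo, 62.5 at the median and 85.0 in the highest on Day 8. On Day 10 these values were 169, 266 and 594 CPM. On Day 12 they were 790, 1866 and 3250 CPM. None of the 3 days overlapped, and the highest Day 10 embryo stayed below the lowest of Day 12. The log2 fold change was 2.31 ± 0.24 (SE) to Day 10 (adjusted p 1.99e-09) and 2.60 ± 0.24 to Day 12 (adjusted p 7.59e-11). TMSB10, the thymosin of the same family on chromosome 3, ran from 404 to 588 CPM on Day 8 with a median of 460, from 840 to 2154 on Day 10 with a median of 1279, and from 1924 to 6544 on Day 12 with a median of 2459. It rose by a log2 fold change of 1.54 ± 0.21 (adjusted p 2.76e-07) and then 1.26 ± 0.21 (adjusted p 4.18e-06), with Day 10 and Day 12 overlapping. In fits of one sex, the second rise was 1.52 in females (adjusted p 0.00103) and 0.83 in males (adjusted p 0.00129), called in neither. Counts of TMSB10 per count of TMSB4X went from 7.13 ± 1.32 (SD, n = 10) on Day 8 to 4.35 ± 0.80 on Day 10 and 1.75 ± 0.79 on Day 12 in the embryos, a description with no test.

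PFN1 encodes profilin 1, which recharges monomers and hands them to growing filaments. It ran from 944 to 1341 CPM on Day 8 (median 1170), from 1084 to 1489 on Day 10 (median 1252) and from 1217 to 4845 on Day 12 (median 2822). The 2 earlier days overlapped in part, and on Day 12 only the male embryo d12_m_307, at 1217 CPM, lay within the range of Day 10. Its log2 fold change was 0.12 ± 0.15 to Day 10 (adjusted p 0.503) and 1.25 ± 0.15 to Day 12 (adjusted p 3.05e-08). Its paralog PFN2 had medians of 52.9, 51.2 and 56.3 CPM on the 3 days and was not called. Summed, the 4 monomer binding genes took 1742 ± 138 CPM on Day 8, 2998 ± 577 on Day 10 and 8304 ± 3229 on Day 12 (SD, n = 10).

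**Figure D2:**
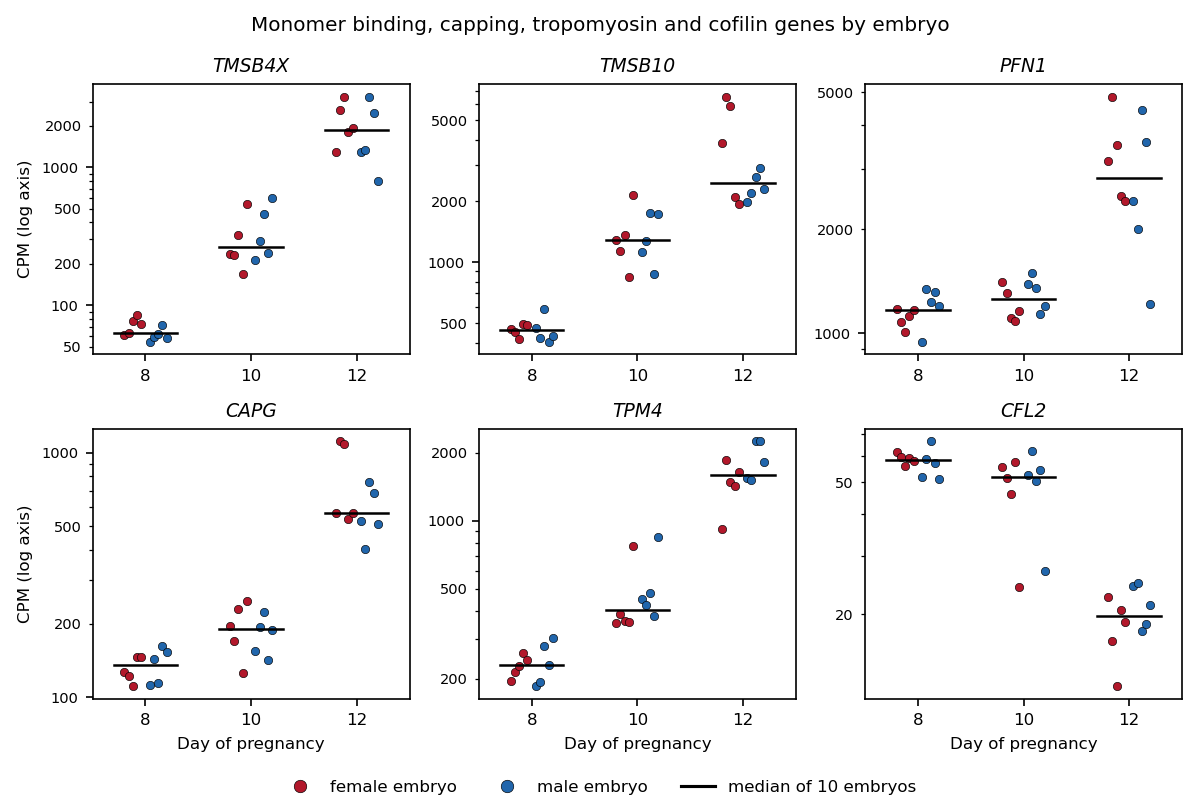
CPM on a log axis against the day for 6 genes, with one point per embryo (red female, blue male) and a line at the median of the 10 embryos. TMSB4X and TMSB10 climbed at each step, PFN1 and CAPG rose on Day 12, and CFL2 was lower on Day 12, with 2 Day 10 embryos (24.1 and 27.0 CPM) near the Day 12 level.

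Among the proteins that end or cut filaments, CAPG and CFL2 went in opposite directions on Day 12. CAPG caps the fast growing end and belongs to the gelsolin family. Its level was 110.7 to 161 CPM on Day 8 (median 135), 125 to 247 on Day 10 (median 190) and 405 to 1112 on Day 12 (median 566). Every Day 12 embryo lay above all of Day 10, and the log2 fold change was 0.48 ± 0.15 to Day 10 (adjusted p 0.00822) and 1.86 ± 0.16 to Day 12 (adjusted p 1.33e-11). The 3 CAPZ genes, which encode the subunits of the heterodimeric capping protein, were not called at either interval, with log2 fold changes between -0.24 and 0.46 to Day 10 and between -0.76 and 0.05 to Day 12. VIL1, the villin of microvilli, was at or below 3 counts in 9 Day 8, 3 Day 10 and 2 Day 12 embryos and reached 2.94 CPM at most. It was called higher over the whole span alone (adjusted p 2.08e-07), with overlap of Days 8 and 12. The size of that rise is uncertain because most Day 8 embryos were at the floor.

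CFL2 encodes the cofilin that is typical of muscle. It ran from 51.2 to 66.5 CPM on Day 8 (median 58.4), from 24.1 to 62.3 on Day 10 (median 52.1) and from 12.1 to 24.9 on Day 12 (median 19.8). On Day 10 the embryos d10_f_454 and d10_m_453 had 24.1 and 27.0 CPM, and the first of these lay within the Day 12 range. The log2 fold change was -0.27 ± 0.13 to Day 10 (adjusted p 0.0901) and -1.28 ± 0.14 to Day 12 (adjusted p 1.90e-09). CFL1, the cofilin of most tissues, had medians of 734, 803 and 1100 CPM and a log2 fold change of 0.57 ± 0.11 to Day 12 (adjusted p 3.01e-05), short of a call. Within an embryo, CFL2 counts per count of CFL1 averaged 0.0802 ± 0.0080 on Day 8, 0.0613 ± 0.0199 on Day 10 and 0.0178 ± 0.0068 on Day 12 (SD, n = 10), with no overlap between Days 8 and 12.

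The cytoplasmic actins themselves were not called, although their balance changed. ACTB, beta actin (chr3:4084275-4090383), ran from 4168 to 5929 CPM on Day 8 (median 4993), from 5147 to 8975 on Day 10 (median 6701) and from 5294 to 11571 on Day 12 (median 7462). ACTG1, gamma actin (chr12:1320355-1323219), ran from 6020 to 8859 CPM on Day 8 (median 7262), from 4028 to 4933 on Day 10 (median 4251) and from 4396 to 6719 on Day 12 (median 5029). The ACTG1 ranges of Days 8 and 10 did not overlap. Its log2 fold change to Day 10 was -0.79 ± 0.078 (adjusted p 9.40e-10), within the limit of 1, and that of ACTB was 0.43 ± 0.12 (adjusted p 0.00363). ACTG1 counts per count of ACTB averaged 1.52 ± 0.12 on Day 8, 0.662 ± 0.085 on Day 10 and 0.682 ± 0.130 on Day 12 (SD, n = 10), so every Day 8 embryo held more counts of ACTG1 and every later embryo more of ACTB. The coding sequences of the actins are nearly identical, and how the counting divided reads between them is not given in the sources used here.

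The muscle actins were scarce. ACTA1, the actin of skeletal muscle, ran from 0.104 to 0.845 CPM on Day 8 (median 0.241), from 0.954 to 13.8 on Day 10 (median 3.59) and from 0.0409 to 4.64 on Day 12 (median 1.33). All Day 10 embryos lay above Day 8, for a log2 fold change of 3.69 ± 0.53 (adjusted p 7.50e-07), and no call followed to Day 12 (-1.42 ± 0.47, adjusted p 0.00974). ACTA2, the actin of smooth muscle, was at or below 3 counts in all 10 Day 8 and 9 Day 10 embryos and between 0.327 and 1.59 CPM on Day 12, and it rose to Day 12 (adjusted p 1.21e-09). Its Day 12 mean was at least 4.71-fold higher than Day 8 when 3 counts in the Day 8 library with the highest floor stood for Day 8.

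Most genes of the Arp2/3 complex were not called, like most genes of the table, while the balance of its ARPC1 subunit pair changed. Of the 16 actin-related and ARPC genes, ARPC1B and ACTR3B rose to Day 10 and ACTR3B alone fell to Day 12. Of all genes, 9.88% rose to Day 10, and 14.9% rose and 8.39% fell to Day 12. The summed level of the 10 genes ACTR2, ACTR3, ACTR3B and ARPC1A to ARPC5L was 3890 ± 234 CPM on Day 8, 4227 ± 173 on Day 10 and 3819 ± 796 on Day 12 (SD, n = 10). ARPC1B ran from 100.1 to 147 CPM on Day 8 (median 125), from 265 to 412 on Day 10 (median 316.9) and from 242 to 606 on Day 12 (median 332.8). It rose to Day 10 without overlap by a log2 fold change of 1.41 ± 0.15 (adjusted p 3.25e-09) and was at 0.24 ± 0.15 to Day 12 (adjusted p 0.155).

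ARPC1A, the other gene for that subunit, lies next to it on chromosome 3 (chr3:6296257-6324526, with ARPC1B at chr3:6329737-6342641). Its medians were 505, 404 and 274 CPM, and all Day 12 embryos (249.2 to 337 CPM) lay below all Day 10 embryos (379 to 464 CPM). At a log2 fold change of -0.52 ± 0.072 (adjusted p 2.74e-07) it stayed within the limit for a call. ARPC1B counts per count of ARPC1A averaged 0.264 ± 0.033 on Day 8, 0.810 ± 0.13 on Day 10 and 1.34 ± 0.34 on Day 12 (SD, n = 10), and Day 8 overlapped with neither later day. ARPC1B shares part of its span with PDAP1, so reads of both genes may have been counted together there.

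ACTR3B, a paralog of the core subunit ACTR3, ran from 2.67 to 5.57 CPM on Day 8 (median 3.51), from 7.85 to 17.8 on Day 10 (median 14.2) and from 2.90 to 9.98 on Day 12 (median 4.10). It rose by a log2 fold change of 1.91 ± 0.19 (adjusted p 1.27e-09) and fell by 1.51 ± 0.19 on the log2 scale (adjusted p 4.35e-08), with overlap only in the second step. Per count of ACTR3 it had at most 0.0264 counts in any embryo. Among ACTR1A, ACTR1B and ACTR10 of dynactin, the cofactor of dynein, and ACTR5, ACTR6 and ACTR8 of nuclear chromatin remodelers, no gene was called, with log2 fold changes between -0.68 and 0.96 over both intervals.

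Among the crosslinking proteins, PLS1 fell and PLS3 rose on Day 12. PLS1 encodes plastin 1, which bundles filaments in microvilli, and ran from 91.1 to 177 CPM on Day 8 (median 139), from 342 to 528 on Day 10 (median 418) and from 82.2 to 230 on Day 12 (median 139). Day 10 stood above both other days without overlap. Its log2 fold change was 1.63 ± 0.14 to Day 10 (adjusted p 4.93e-11) and -1.59 ± 0.14 to Day 12 (adjusted p 2.34e-11). PLS3, the X-linked plastin of most solid tissues (chrX:94885098-94971664), ran from 1.30 to 3.04 CPM on Day 8 (median 2.23), from 2.24 to 8.53 on Day 10 (median 3.28) and from 25.5 to 123.96 on Day 12 (median 82.9). The lowest Day 12 embryo was well above the highest of Day 10, and the log2 fold change was 4.43 ± 0.26 (adjusted p 1.56e-15). PLS1 counts per count of PLS3 went from 64.0 ± 17.4 on Day 8 and 133.1 ± 49.7 on Day 10 to 1.90 ± 0.74 on Day 12 (SD, n = 10), where the highest embryo, at 3.96, stayed below every embryo of the earlier days. LCP1, the plastin of leukocytes, was between 0.600 and 6.96 CPM in all embryos and was not called.

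ACTN1, an alpha-actinin of stress fibers and adhesions, ran from 363 to 543 CPM on Day 8 (median 452), from 659 to 1392 on Day 10 (median 987) and from 173 to 648 on Day 12 (median 362). It rose by a log2 fold change of 1.18 ± 0.15 (adjusted p 1.70e-07) and fell by 1.45 ± 0.16 on the log2 scale (adjusted p 2.00e-09), both without overlap. ACTN4, its close relative, had medians of 309, 320 and 261 CPM and was not called. Muscle ACTN2 was between 0.574 and 4.44 CPM throughout and was not called.

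Of the filamins, which join filaments into loose networks, FLNC rose on Day 12. FLNC ran from 342 to 645 CPM on Day 8 (median 477), from 237 to 385 on Day 10 (median 314) and from 541 to 1490 on Day 12 (median 919). Its log2 fold change was -0.61 ± 0.13 to Day 10 (adjusted p 2.85e-04) and 1.59 ± 0.14 to Day 12 (adjusted p 1.77e-11), the latter without overlap. FLNA, on the X chromosome, had medians of 255, 467 and 847 CPM and was called over the whole span from Day 8 (1.85 ± 0.16, adjusted p 1.26e-11, no overlap), though its steps of 0.96 ± 0.16 and 0.89 ± 0.16 each fell short of a log2 fold change of 1.

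All 3 ERM genes fell on Day 12, after MSN and RDX had risen to Day 10. Among all genes, 8.39% fell to Day 12 and 9.88% rose to Day 10. EZR, ezrin, the linker of microvilli in epithelia, ran from 2747 to 3220 CPM on Day 8 (median 2887), from 2270 to 3021 on Day 10 (median 2699) and from 352 to 1142 on Day 12 (median 734). Days 8 and 10 overlapped, and Day 12 lay below both. The log2 fold change was -0.11 ± 0.13 to Day 10 (adjusted p 0.463) and -1.90 ± 0.13 to Day 12 (adjusted p 1.35e-13).

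MSN, moesin, on the X chromosome, ran from 629 to 1012 CPM on Day 8 (median 765), from 1107 to 2261 on Day 10 (median 1599) and from 233 to 521 on Day 12 (median 434). Each day was apart from the others. It rose by a log2 fold change of 1.03 ± 0.13 (adjusted p 1.17e-07) and then fell by 1.95 ± 0.14 on the log2 scale (adjusted p 1.28e-13). The rise was close to the limit of 1 and was not called without d10_f_454 or without d08_m_111, at log2 fold changes of 0.96 and 1.0. RDX, radixin, ran from 186 to 259 CPM on Day 8 (median 223), from 420 to 884 on Day 10 (median 592) and from 25.7 to 203 on Day 12 (median 173). It rose by 1.48 ± 0.21 (adjusted p 6.58e-07) and fell by 2.09 ± 0.21 on the log2 scale (adjusted p 6.68e-10), with Day 10 above both other days. The lowest Day 12 values of EZR (352 CPM) and RDX (25.7 CPM) were both in d12_f_271. Summed, the ERM genes took 3944 ± 172 CPM on Day 8, 4948 ± 430 on Day 10 and 1290 ± 317.95 on Day 12 (SD, n = 10).

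**Figure D3:**
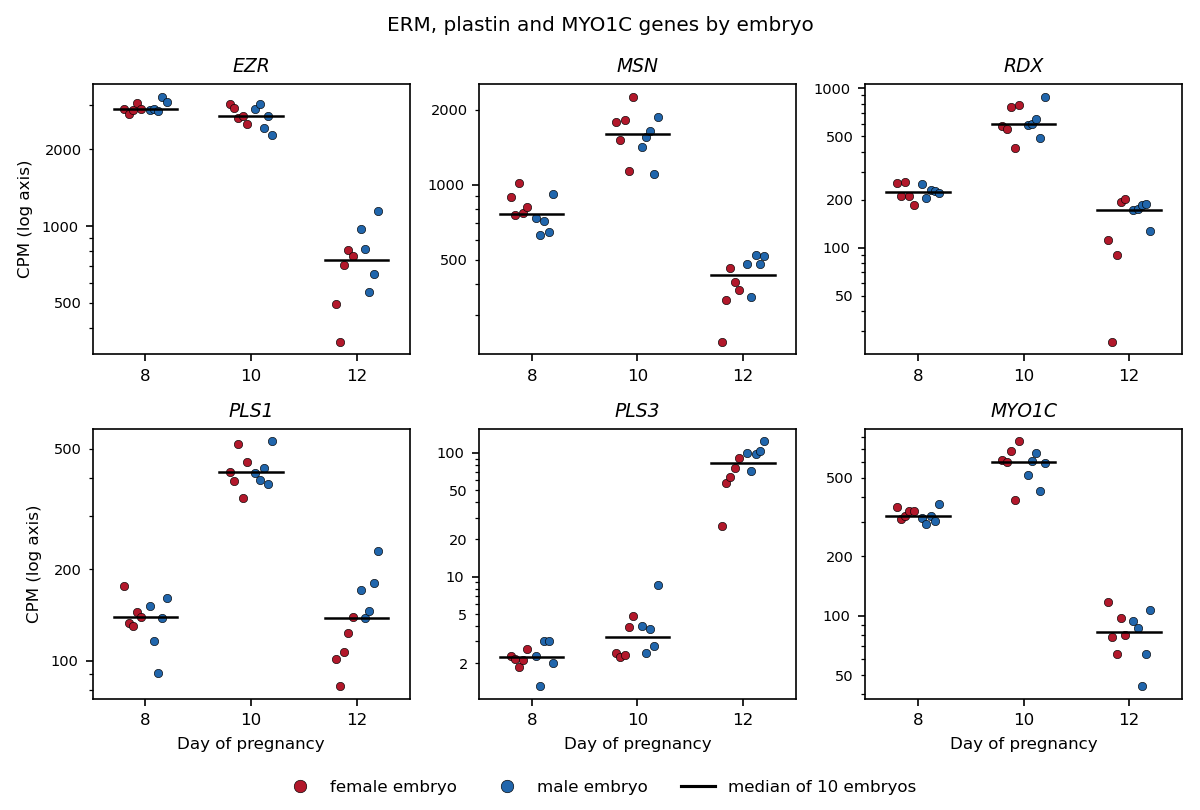
CPM on a log axis against the day for EZR, MSN, RDX, PLS1, PLS3 and MYO1C, with one point per embryo (red female, blue male) and a line at the median of the 10 embryos. Medians of MSN, RDX, PLS1 and MYO1C peaked on Day 10, EZR was at medians of 2887 and 2699 CPM on the earlier days and at 734 on Day 12, and PLS3 went from 3.28 to 82.9.

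Tropomyosins, the coiled coils along the sides of filaments, were led by TPM4, which rose at both intervals. TPM4 (chr2:61453721-61476781) ran from 185 to 303 CPM on Day 8 (median 229), from 355 to 849 on Day 10 (median 404) and from 921 to 2253 on Day 12 (median 1602). The 3 days did not overlap, and the highest Day 10 embryos were d10_m_453 at 849 CPM and d10_f_454 at 775. Its log2 fold change was 1.05 ± 0.16 to Day 10 (adjusted p 3.09e-06) and 1.80 ± 0.17 to Day 12 (adjusted p 8.05e-11). The first rise was not called without either of these embryos, at a log2 fold change of 0.92 without the first and 0.95 without the second, nor without the 4 Day 10 embryos that stood apart (0.82). TPM3 had medians of 975, 1289 and 1231 CPM and was not called. Counts of TPM4 per count of TPM3 averaged 0.238 ± 0.033 on Day 8, 0.384 ± 0.13 on Day 10 and 1.38 ± 0.38 on Day 12 (SD, n = 10), with Day 12 apart from both earlier days.

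TPM2, a tropomyosin of muscle, ran from 0.592 to 1.27 CPM on Day 8 (median 0.884), from 0.819 to 3.87 on Day 10 (median 1.77) and from 2.58 to 22.0 on Day 12 (median 8.97). It rose to Day 12 by a log2 fold change of 2.34 ± 0.30 (adjusted p 7.52e-08) with overlap of the days. TPM1 had medians of 186, 161 and 284 CPM, with Day 12 above Day 10 in all embryos and a log2 fold change of 0.84 ± 0.096 (adjusted p 5.74e-09), within the limit for a call.

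The heavy chains of nonmuscle myosin II, the motor of cortical contraction, moved in opposite directions on Day 12, though MYH10 alone was called. MYH10, heavy chain IIB, ran from 246 to 575 CPM on Day 8 (median 319), from 310.5 to 877 on Day 10 (median 429) and from 138 to 325 on Day 12 (median 232). Days 10 and 12 overlapped slightly, and the log2 fold change to Day 12 was -1.06 ± 0.18 (adjusted p 8.67e-06). That fall was not called without d10_f_454, d10_m_453 or d12_f_245, at log2 fold changes of -0.92, -1.0 and -1.0. MYH9, heavy chain IIA, ran from 316 to 517 CPM on Day 8 (median 409), from 319 to 590 on Day 10 (median 407) and from 464 to 1385 on Day 12 (median 791), a log2 fold change of 0.94 ± 0.14 to Day 12 (adjusted p 8.69e-07) that fell short of a call. Without d12_f_245 and d12_f_271 together, MYH10 was not called (-0.93) and MYH9 was, and without the 4 Day 10 embryos that stood apart MYH10 was not called either (-0.93). In each embryo, MYH10 counts per count of MYH9 averaged 0.812 ± 0.13 on Day 8, 1.13 ± 0.28 on Day 10 and 0.307 ± 0.12 on Day 12 (SD, n = 10), and the highest Day 12 ratio (0.605) lay below the lowest Day 10 ratio (0.777). MYH14, heavy chain IIC, was rare, with medians of 0.661, 1.78 and 6.91 CPM, and was called over the whole span alone (2.96 ± 0.57, adjusted p 3.20e-05).

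**Figure D4:**
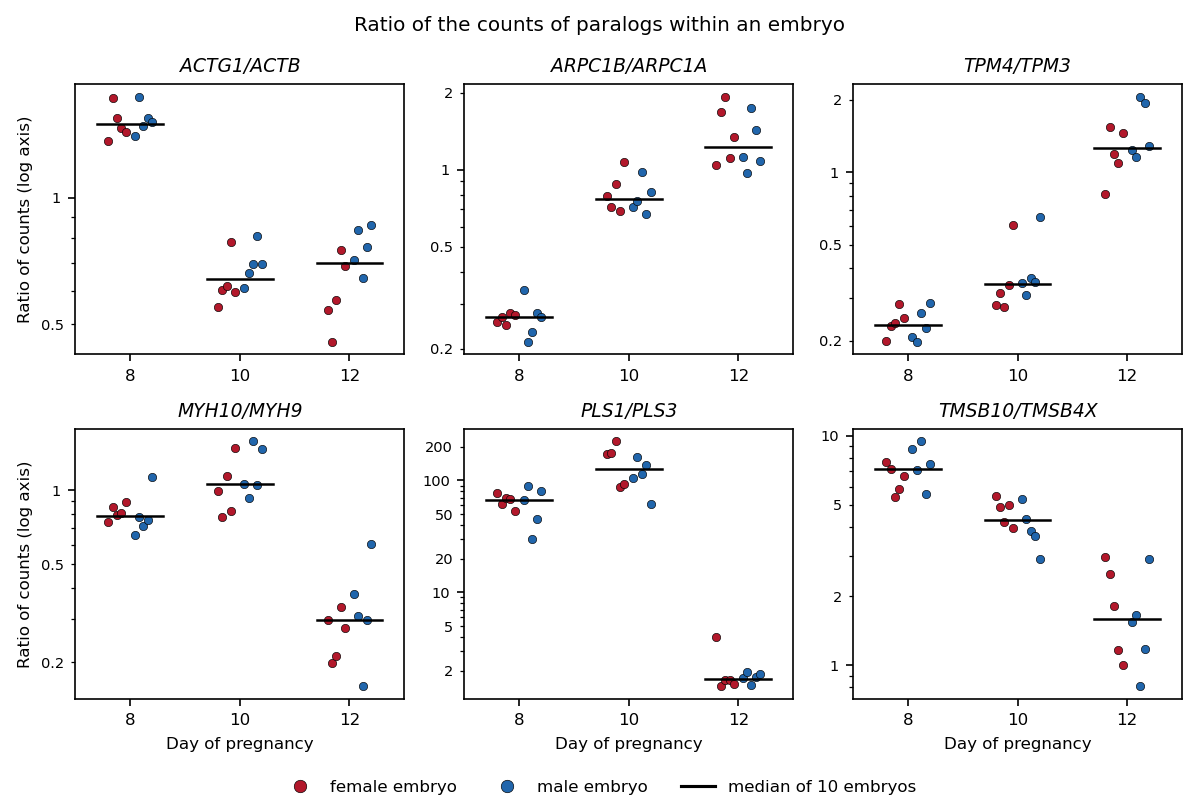
Ratio of the counts of 2 paralogs within each embryo, on a log axis, against the day, with one point per embryo (red female, blue male) and a line at the median of the 10 embryos. The ratio depends on transcript lengths, so its change over the days is what can be read. ACTG1/ACTB was lower after Day 8, ARPC1B/ARPC1A was higher after Day 8, and TPM4/TPM3, MYH10/MYH9 and PLS1/PLS3 were apart on Day 12.

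Among the heavy chains of muscle myosins, MYH7 rose on Day 12, MYH7B fell to Day 10 and MYH11 rose to Day 10, all from low levels. MYH7, the slow and cardiac heavy chain (chr7:75650841-75672908), ran from 0.104 to 1.40 CPM on Day 8 (median 0.470), from 0 to 0.348 on Day 10 (median 0.140) and from 4.60 to 59.3 on Day 12 (median 16.4). Every Day 12 embryo lay above all earlier ones. The log2 fold change to Day 12 was 7.11 ± 0.55 (adjusted p 1.30e-12), although 5 of the 10 Day 10 libraries held 3 counts or fewer. MYH7B, a related heavy chain on chromosome 17, had medians of 3.67, 1.49 and 1.5 CPM and fell to Day 10 by 1.11 ± 0.24 on the log2 scale (adjusted p 2.08e-04), with overlap, a change of -0.98 without the 4 Day 10 embryos that stood apart (adjusted p 0.00603). Part of its span is shared with TRPC4AP. MYH11, the heavy chain of smooth muscle, had medians of 0.453, 1.36 and 1.48 CPM and rose to Day 10 (2.72 ± 0.47, adjusted p 1.51e-05). Its 4 highest Day 10 values, from 3.64 to 8.12 CPM, were in d10_f_433, d10_f_454, d10_m_435 and d10_m_453, and without these 4 it was not called (1.35, adjusted p 0.00708).

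Light chains, which bind the neck of the heavy chain, rose over the span in every case, and all 6 were called higher on Day 12 than on Day 8, as were 22.0% of all genes. Without d12_f_245 and d12_f_271, MYL4 (1.34, adjusted p 0.00133) and MYL9 (0.92, against 1.12 with them) were not called. MYL6, the essential chain of nonmuscle and smooth muscle myosin, ran from 179 to 252 CPM on Day 8 (median 208), from 383 to 624 on Day 10 (median 444) and from 376 to 933 on Day 12 (median 470). It rose to Day 10 without overlap by a log2 fold change of 1.17 ± 0.14 (adjusted p 5.62e-08). MYL9, a regulatory chain of the same myosins, had medians of 69.2, 137 and 138 CPM and rose to Day 10 (1.28 ± 0.23, adjusted p 2.05e-05) with overlap. MYL6B, the gene beside MYL6 on chromosome 5, had medians of 13.3, 19.0 and 26.4 CPM and was called over the whole span alone (1.19 ± 0.15, adjusted p 1.61e-08).

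Chains named for heart muscle moved as well. MYL3 ran from 2.15 to 3.92 CPM on Day 8 (median 3.06), from 7.99 to 15.5 on Day 10 (median 12.4) and from 14.9 to 41.8 on Day 12 (median 19.8), and it rose to Day 10 without overlap (1.95 ± 0.17, adjusted p 5.78e-11). MYL7 was at or below 3 counts in all 10 Day 8 and 7 Day 10 embryos and between 1.01 and 6.36 CPM on Day 12. It rose to Day 12 (adjusted p 1.22e-09), to a mean at least 14.0-fold higher than Day 8. MYL4 had medians of 4.93, 6.49 and 12.2 CPM and was called over the whole span alone (1.60 ± 0.36, adjusted p 1.89e-04).

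Other muscle markers differed in direction. Of 10 skeletal muscle markers, only TTN could be measured, at 2.29 CPM or less in every embryo, and it fell to Day 12. Of 4 heart markers, only TNNI3 could be measured, with medians of 22.0, 81.7 and 18.8 CPM and thus its peak on Day 10. Of 6 smooth muscle markers, 4 could be measured, and TAGLN (2.52, 6.82 and 44.4 CPM), CNN1 (2.41, 0.552 and 5.84 CPM) and DES (0.451, 0.377 and 1.71 CPM, medians) rose to Day 12. The fourth, SMTN, had medians of 28.8, 73.5 and 49.8 CPM, rose to Day 10 (1.25 ± 0.14, adjusted p 8.71e-09) and was at -0.53 ± 0.14 to Day 12 (adjusted p 0.00134). Summed over those 4, the lowest and highest embryos had 31.1 and 57.8 CPM on Day 8, 41.7 and 117 on Day 10, and 53.0 and 248 on Day 12. Of 6 mesoderm marker symbols, in which T and TBXT name the same gene, 3 could be measured. HAND1, a mesoderm and trophoblast factor, went from a median of 0 through 66.0 to 1064 CPM. Mesodermal T had medians of 0.105, 1.46 and 0.0193 CPM, and EOMES had 2.13, 2.81 and 0.0350 CPM, both falling to Day 12. Their part in the changes of muscle genes was not tested.

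Unconventional myosins, which move membranes and cargo, had more calls upward than downward to Day 10 and the reverse to Day 12. Of 16 such genes, 5 rose and 1 fell to Day 10, against 9.88% and 4.20% of all genes. To Day 12, 1 rose and 5 fell, against 14.9% and 8.39%. MYO1C, a class I motor that couples membranes to actin, ran from 291 to 367 CPM on Day 8 (median 320), from 387 to 765 on Day 10 (median 603) and from 43.8 to 117 on Day 12 (median 82.8). The 3 days did not overlap, and Day 12 lay far below the others. The log2 fold change was 0.85 ± 0.13 to Day 10 (adjusted p 2.31e-06) and -2.82 ± 0.14 to Day 12 (adjusted p 3.48e-17).

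MYO1D, another class I motor, went the other way on Day 12. It ran from 19.1 to 46.2 CPM on Day 8 (median 34.3), from 47.8 to 134 on Day 10 (median 81.5) and from 82.5 to 329 on Day 12 (median 207.0). The rise was 1.36 ± 0.20 (adjusted p 9.24e-07) without overlap and then 1.33 ± 0.20 (adjusted p 6.94e-07) with overlap. CDK5R1 lies within the span of MYO1D. MYO1E and MYO1G, also of class I, were not called.

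Vesicle motors of class V diverged. MYO5A ran from 164 to 230.5 CPM on Day 8 (median 190), from 209 to 260 on Day 10 (median 226) and from 49.3 to 102 on Day 12 (median 82.3), and it fell to Day 12 without overlap (-1.51 ± 0.099, adjusted p 3.32e-14). MYO5B, the motor of recycling endosomes in epithelia, had medians of 34.1, 72.4 and 64.3 CPM and rose to Day 10 without overlap (1.26 ± 0.14, adjusted p 1.45e-08). MYO5C, with medians of 4.12, 2.5 and 3.46 CPM, was not called.

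MYO6, the one myosin known to walk toward the pointed end, ran from 61.9 to 99.0 CPM on Day 8 (median 79.1), from 129.1 to 198 on Day 10 (median 151) and from 24.3 to 76.5 on Day 12 (median 51.3). Day 10 stood above both other days. The rise of 1.0 ± 0.14 (adjusted p 6.35e-07) was at the limit and was lost without any one of 7 embryos (0.96 to 1.0) and without the 4 Day 10 embryos that stood apart (0.98), and the fall to Day 12 was 1.63 ± 0.14 on the log2 scale (adjusted p 3.09e-11). MYO9A, a motor of class IX, had medians of 48.0, 67.9 and 35.6 CPM and a log2 fold change of -1.07 ± 0.17 to Day 12 (adjusted p 4.02e-06). That fall was -0.97 without d12_f_245 and -0.99 without d12_f_271, and -0.88 without both, and not called in any of these cases.

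MYO18B and MYO7B were scarce genes with large changes. MYO18B ran from 0.0636 to 0.556 CPM on Day 8 (median 0.235), from 0.273 to 8.54 on Day 10 (median 2.58) and from 0 to 0.289 on Day 12 (median 0.112). It rose to Day 10 by a log2 fold change of 3.67 ± 0.51 (adjusted p 5.08e-07) and fell by 4.82 ± 0.57 on the log2 scale (adjusted p 1.26e-08), with overlap at both steps. MYO7B, a myosin of the microvillus brush border, was at or below 3 counts in all 10 Day 8 embryos and had medians of 0.660 CPM on Day 10 and 0.928 on Day 12. It rose to Day 10 (adjusted p 1.02e-07), and its means on Days 10 and 12 were at least 5.08-fold and 6.18-fold higher than Day 8.

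**Figure D5:**
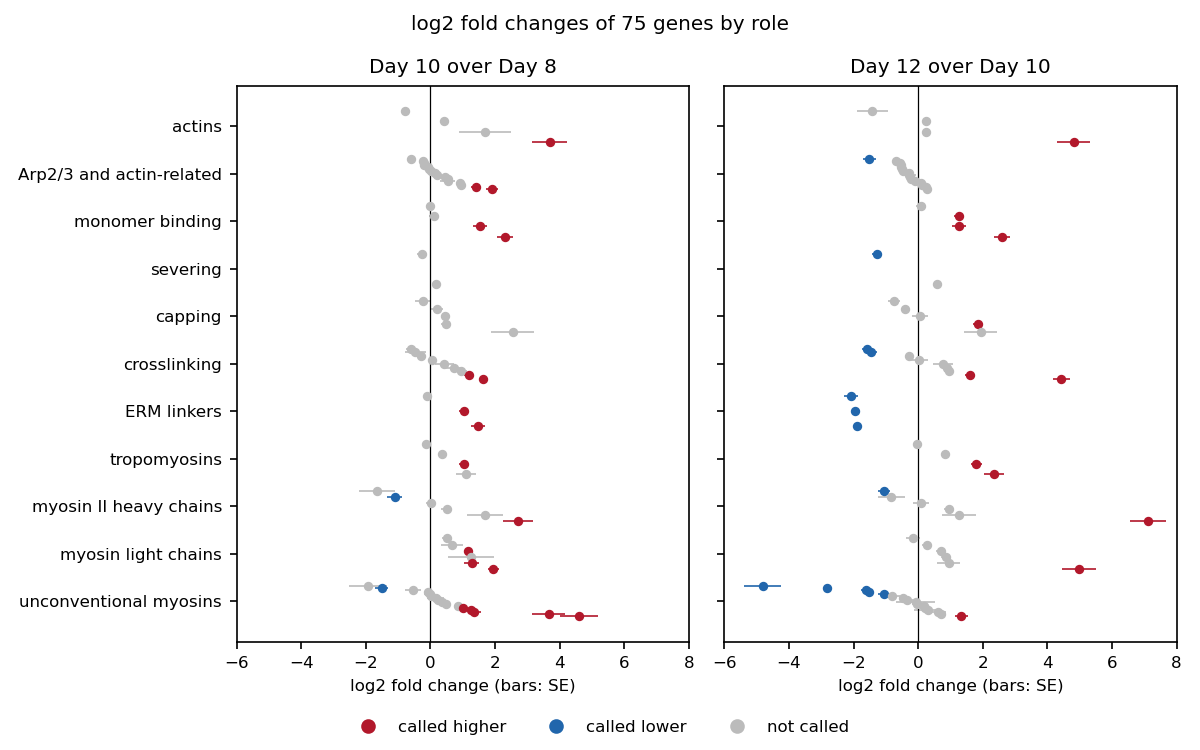
log2 fold changes of all 75 genes with their SE, by role, from Day 8 to Day 10 (left) and from Day 10 to Day 12 (right), in red where called higher, blue where called lower and gray where not called. The 3 ERM genes lay at -2.09, -1.95 and -1.90 in the right panel, and unconventional myosins had 5 calls higher in the left panel and 5 calls lower in the right.

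Beyond the 75 genes, regulators and partners of actin were examined by a list of 91 symbols, in which MRTFA and MRTFB repeat MKL1 and MKL2. Of the 91 symbols, 75 were in the table. Of these, 9 rose and 3 fell to Day 10, against 9.88% and 4.20% of all genes, and 15 rose and 5 fell to Day 12, against 14.9% and 8.39%. CORO2A, a coronin, ran from 0.608 to 3.32 CPM on Day 10 and from 89.8 to 263 on Day 12, a log2 fold change of 6.85 ± 0.25 (adjusted p 1.67e-20) without overlap. FSCN1, fascin, which bundles filaments in cell protrusions, ran from 70.3 to 110 CPM on Day 10 and from 780 to 1745 on Day 12 (3.73 ± 0.16, adjusted p 1.39e-18), again without overlap. CORO1B, a coronin that acts on Arp2/3 branches, had medians of 34.0, 128 and 413 CPM and rose at both steps without overlap.

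Some regulators of cofilin and myosin on this list were called between adjacent days, and LIMK1, SSH2, ROCK1, ROCK2, PPP1R12A and PPP1R12B were not. LIMK2, which phosphorylates cofilin, had medians of 146, 364 and 152 CPM and rose (1.46 ± 0.16, adjusted p 6.36e-09) and fell (-1.36 ± 0.16, adjusted p 1.05e-08), both without overlap. SSH1, a phosphatase that acts against it, had medians of 17.9, 19.7 and 66.2 CPM and rose to Day 12 (1.54 ± 0.13, adjusted p 8.22e-12). MYLK, the myosin light chain kinase, had medians of 0.563, 14.6 and 2.10 CPM and rose to Day 10 by a log2 fold change of 4.55 ± 0.44 (adjusted p 5.25e-10) before it fell by 2.73 ± 0.39 on the log2 scale (adjusted p 5.55e-07). Talins, which tie integrins to actin, went in opposite directions, as TLN1 rose to Day 12 (medians of 92.8, 180 and 693 CPM, log2 fold change 1.78 ± 0.20, adjusted p 3.24e-09) and TLN2 fell (medians of 197, 301 and 50.0 CPM, -2.34 ± 0.17, adjusted p 6.03e-13).

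Female and male embryos were compared within each day, with an adjusted p under 0.05 in the table of that day. None of the 66, 70 and 73 genes of the set in the tables of Days 8, 10 and 12 was called by the edgeR quasi-likelihood test, while 0.658%, 0.223% and 0.123% of all genes were. At an unadjusted p under 0.05 there were 1, 2 and 9 of them, which is 1.52%, 2.86% and 12.3%, with 4.59%, 2.36% and 22.7% of all genes. DESeq2 called 0 on each day, and edgeR's robust GLM called 0, 0 and 1. On Day 12, PLS1 was lower in all 5 female embryos (89.3 to 146.0 CPM, scaled in the Day 12 table) than in all 5 male embryos (146.2 to 240 CPM), for a log2 fold change of -0.62 ± 0.18 (adjusted p 0.198). It was the only one of 73 genes without overlap of the sexes on that day, against 4.62% of all genes. There was none on Days 8 and 10, against 1.59% and 0.848% of all genes.

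The X chromosome, of which females carry a pair, holds 4 of the genes. TMSB4X had female over male log2 fold changes of 0.23 ± 0.11, -0.27 ± 0.36 and 0.29 ± 0.37 on Days 8, 10 and 12, with adjusted p values of 0.999, 1 and 0.631. MSN had 0.22 ± 0.11, 0.15 ± 0.19 and -0.34 ± 0.18 (adjusted p 0.999, 1 and 0.263). FLNA had 0.20 ± 0.21, 0.23 ± 0.21 and -0.13 ± 0.20 (adjusted p 0.999, 1 and 0.706), and PLS3 had -0.07 ± 0.24, -0.46 ± 0.37 and -0.64 ± 0.27 (adjusted p 0.999, 1 and 0.206). The ranges of the sexes overlapped for each of these genes on each day. The change between days did not differ by sex in any of the 75 genes at an adjusted p under 0.05 by quasi-likelihood test or DESeq2, as in 0% of all 13103 genes at both intervals by the former. At an unadjusted p under 0.05 this interaction was seen in 1 gene of the set to Day 10 and in 14 to Day 12, which is 1.33% and 18.7%, against 0.763% and 18.9% of all genes.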

How the data were processed

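RNA of single embryos was sequenced from stranded mRNA libraries as single-end reads. The authors trimmed the reads, aligned them to the Sscrofa11.1 genome, took gene models from NCBI and dropped genes below a cutoff in CPM. The deposited tables hold raw counts of reads on each gene, listed by NCBI identifier, and the aligner, the counting tool and its strand setting are not given in the sources used here. Symbols were matched by identifier, and 10 of the 75 genes overlap another gene of the table, whose reads may not have been told apart. Levels are CPM with TMM factors, and totals per embryo limit the precision of scarce genes. Days were tested in the table of 13103 genes, in 1 fit with 10 embryos a day, and sexes (5 against 5) in the table of their day. The test was the quasi-likelihood F test of edgeR 4.0.16 (limma 3.58.1, R 4.3.3) with robust dispersion and Benjamini-Hochberg adjustment over all genes. Interactions used a fit of the 6 groups of day and sex. An SE is the log2 fold change divided by the root of F. The floor is 3 counts per library, and a bound sets the mean of a day against the highest floor of the other.

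Tables and figures used Python 3.11.15 with numpy 2.4.6, pandas 2.3.3 and matplotlib 3.10.9, and the tests were tried on simulated data. Litters are not given and 4 gilts were used per day, so the test treats littermates as independent, and its p-values, which measure only the spread between these embryos, may be too small. Genes given with full values are the called genes, the genes named in the paper, small role groups and X-linked genes. Alternatives were DESeq2 1.42.0, edgeR's robust GLM, RLE factors, library size alone, a minimum of 10 counts in 5 embryos, a minimum mean of 1 CPM, sex in the model, fits of 2 days, fits of one sex, testing against a minimum log2 fold change of 1, and each embryo left out. Leaving out 2 or 4 embryos together and the count over genes in all 3 day tables were chosen after seeing the data. The genes, lists and tests were chosen with earlier results of these data known. No sequences were used here, and values of 2 of the 75 genes are not reported here.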

Additional observations from a re-analysis of the deposited data

Results flagged for a closer look

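Among the genes given with full values, each set of 10 embryos of a day was tested for one embryo far from the rest, by Dixon's ratio of the gap to the range. In 10 sets (9.43%) an embryo stood out, where chance gives about 1 in 20 if values are normally distributed. That was not checked for CPM, and the sets share embryos, so no excess over chance is claimed. All 10 were the highest of their day. On Day 8, TMSB10 was 587.7 CPM in d08_m_121 against at most 497 in the others, and ACTR3B was 5.57 CPM in d08_m_103 against at most 3.99. MYH10 was 574.9 CPM in the male embryo d08_m_136, with the others at 384 or less. MYO5B was 42.5 CPM in d08_f_124, with the others at 35.9 or less.

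On Day 10, the male embryo d10_m_453 stood out in ACTA1 at 13.8 CPM (others to 7.0) and in PLS3 at 8.53 CPM (others to 4.84). On Day 12, FLNA was 1384 CPM in d12_m_276 against at most 975, MYL3 was 41.8 CPM in d12_f_271 against at most 23.5, MYH7B was 4.49 CPM in d12_f_245 against at most 2.64, and MYO7B was 3.61 CPM in d12_f_289 against at most 2.04. The cause of these values was not tested.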

How the results depend on the processing

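The number of the 75 genes called to Day 10 was 16 to 21 higher and 2 lower when each embryo was left out in turn. From Day 10 to Day 12 it was 12 to 14 higher and 12 to 13 lower, and from Day 8 to Day 12 it was 22 to 25 higher and 5 to 6 lower. DESeq2, RLE factors and sex as a term called the 21 and 25 genes of the adjacent intervals again, DESeq2 with VIL1 in addition to Day 10. The robust GLM of edgeR did not call TPM4 to Day 10 (0.88) and added MYH14, TPM2 and VIL1. To Day 12 from Day 10, that test did not call MYH10 (-0.92) and added MYH14, MYO1G and VIL1. To Day 10, female embryos alone gave 9 higher and 1 lower, male embryos alone 17 higher and 1 lower, and testing against a minimum log2 fold change of 1 gave 7 higher and 0 lower. Leaving out d10_f_433, d10_f_454, d10_m_435 and d10_m_453 together gave 16 higher and 1 lower. Without d12_f_245 and d12_f_271, added calls included MYH9, MYO1G and VIL1 to Day 12 from Day 10. At that interval, testing against that minimum called 8 lower. The shares of all genes called under these settings are not given here. The counts thus show only how many of the 75 were called, not how they stood against all genes. Over the 65 genes in all 3 day tables, 15 (23.1%) were higher on Day 12 than on Day 8. Over the 75 it was 23 (30.7%), and 22.0% of all genes were higher.

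Single calls close to the log2 limit were lost without one embryo in MSN, MYO6 and TPM4 to Day 10 and in MYH10 and MYO9A to Day 12. From Day 8 to Day 12, calls of MYH7B and MYL9 were lost at the same limit, and that of MYH11 (1.75 to 1.92 where lost) at the adjusted p, which then was 0.00102 to 0.00162. Library size alone turned PFN1 to Day 10 from 0.12 to -0.05, and between the sexes, leaving out each embryo moved PLS3 on Day 8 between -0.22 and 0.04 (0.04 without d08_m_121 or d08_m_133) and FLNA on Day 12 between -0.22 and 0.07 (0.07 without d12_m_276), none of them called. On Day 12 edgeR's robust GLM called 1 of these genes lower in females. The cause was not tested in any of these cases. No paired analysis was possible because the labels give no 2 groups the same embryo numbers. Depth limits ACTA2, MYL7, MYO7B, MYO18B and VIL1, which were at or below 3 counts in several embryos.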
